A study of Homo sapiens with 4 samples.

Results

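The serpins are a family of proteins that share one fold, and most of them inhibit proteases. Gene expression arrays of PC3 cells, a prostate cancer line grown from a bone metastasis, measured 31 serpin genes among 18417 genes in all. These are the genes whose symbol is SERPIN followed by a clade letter from A to I and a number, each measured by 1 probe set that the platform annotation ties to a single symbol. The reference gene table lists 35 such genes. The other 4 were not analysed here. By clade, 11 measured genes belong to A, 11 to B, 2 each to F and I, and 1 each to C, D, E, G and H.

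Total RNA came from PC3 cells with the empty vector pBABE (VC-PC3, labelled PC3-SCR, 2 arrays) and from PC3 cells that over-express PDEF (PDEF-PC3, labelled PC3-PDEF, 2 arrays). PDEF, encoded by SPDEF, is an ETS transcription factor of luminal prostate cells. Both groups were kept in the same serum-containing medium with no drug treatment stated, and the PDEF cells are described as stably transfected, with neither the number of clones nor the promoter given. No source says that the 2 arrays of a group are separate cultures, so the p-values rest on differences between arrays that could be no more than technical. An exact permutation test of 2 against 2 arrays cannot give a two-sided p below 0.333, and the tests below are therefore limma's, fitted across all genes.

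A serpin holds out a flexible loop as bait for a protease. When the protease cuts the loop, the serpin snaps into a more stable shape and traps the enzyme, so that one serpin molecule consumes one protease molecule. Secreted members control clotting, fibrinolysis, complement and the elastase of neutrophils, while clade B members mostly stay inside cells and guard against cathepsins and granzymes. A few members have lost inhibition and serve as hormone carriers, as a collagen chaperone or as signalling proteins. In prostate cancer the family is best known for maspin (SERPINB5), a marker of epithelial differentiation.

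Measured across all genes, the groups differed widely. At an adjusted p under 0.05 from limma 50.7% of genes passed, 26.7% higher and 24% lower in PDEF-PC3, and for 74.7% of genes both arrays of one group lay above both of the other. SPDEF read 5.99 and 6.06 (log2 signal) in the VC-PC3 arrays against 6.85 and 6.73 in the PDEF-PC3 arrays. CTNNA1 and STAT3, genes that other work reports as homozygously deleted in PC3 cells, ranged from 4.07 to 4.77 in VC-PC3 but from 9.05 to 9.86 in PDEF-PC3. The PDEF-PC3 arrays thus go against the cell line on their label at these genes, and an effect of PDEF and a difference in the cells themselves cannot be told apart in any comparison below. The highest of 341 olfactory receptor genes, which lay between 5.65 and 6.01 over the arrays, served as a gauge of background. It was OR2H2 in each array, and the 95th percentile of these genes lay lower, at 4.42 to 4.58. SPDEF, just above the gauge in VC-PC3, ranked at percentiles 47.73 and 48.78 of all genes there, so many genes lie under this gauge. A fold change of a gene that lies under this gauge in a group has no exact size.

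Among the 31 serpins, 3 rose, 9 fell and 19 did not pass, which makes 38.7% called beside 50.7% of all genes. After median centring 3 rose and 14 fell, beside 54.7% of all genes called, so the shares called in either direction no longer stood apart. By direction they still differed, as 4484 of all 18417 genes were called higher and 5589 lower in that setting. The median log2 fold change was -0.14 over the serpins and -0.05 over all genes. Calls of at least 2-fold numbered 1 up and 6 down, beside 14.7% of all genes in either direction. For 23 serpins the groups stood apart without overlap, 6 of them above and 17 below VC-PC3, beside the 74.7% of all genes. Most serpins were dim: only 9 exceeded the background gauge in both arrays of at least 1 group, 4 of them in both groups, 4 in VC-PC3 alone and 1 in PDEF-PC3 alone. The 22 dimmer serpins had log2 fold changes from -0.38 to 0.77.

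**Figure D1:**
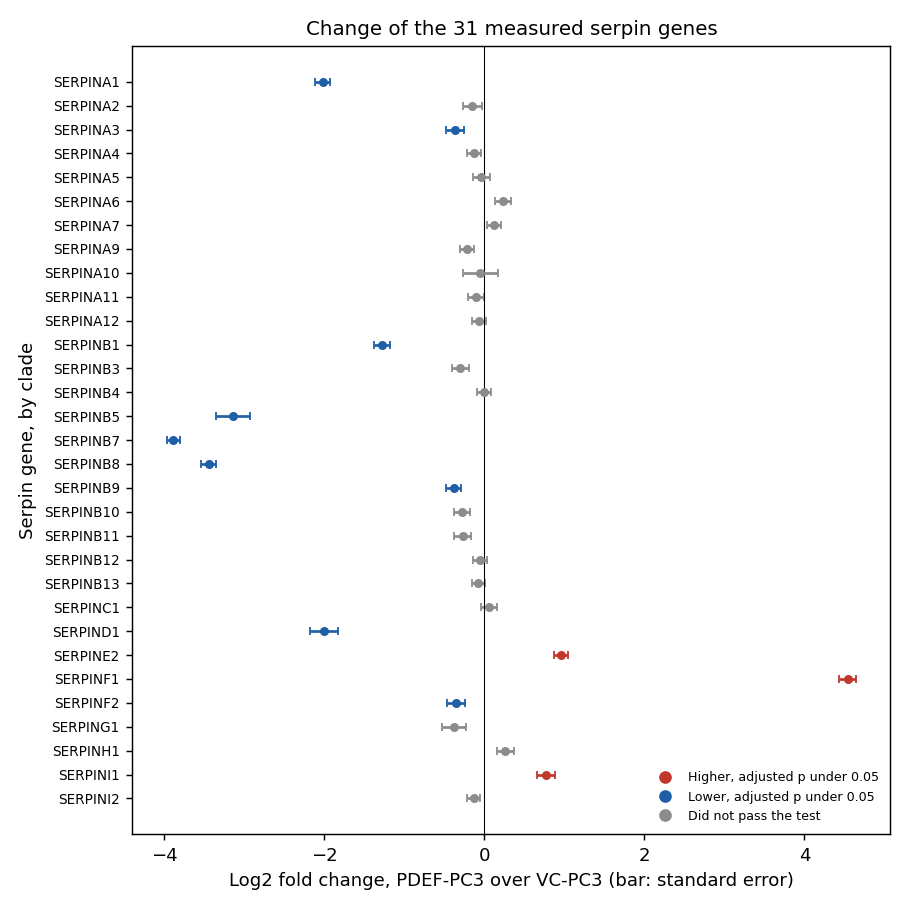
Log2 fold change of PDEF-PC3 over VC-PC3 (horizontal axis) for each of the 31 measured serpin genes in clade order (vertical axis), with bars of 1 standard error (2 against 2 arrays). Red genes rose, blue genes fell and grey genes did not pass at an adjusted p under 0.05; SERPINF1 lies farthest to the right at 4.54 and SERPINB7 farthest to the left.

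In the SERPINB gene cluster on chromosome 18, 3 genes fell. SERPINB7, SERPINB8 and SERPINB5 are shown here with the 250 bases before their annotated start, because they moved together while the measured genes between them were dim. The sequences are RefSeq's (GRCh38.p14, plus strand, 5′ to 3′). Capitals mark matches to TGANTCA on either strand. AP-1 factors bind a core of the form TGAGTCA, while TGANTCA also matches TGAATCA and TGATTCA. The match in SERPINB5 reads TGAATCA. Each window shown of SERPINB7 and SERPINB8 holds a TGAGTCA and a match of another form.
SERPINB5, chr18:63476708-63476957: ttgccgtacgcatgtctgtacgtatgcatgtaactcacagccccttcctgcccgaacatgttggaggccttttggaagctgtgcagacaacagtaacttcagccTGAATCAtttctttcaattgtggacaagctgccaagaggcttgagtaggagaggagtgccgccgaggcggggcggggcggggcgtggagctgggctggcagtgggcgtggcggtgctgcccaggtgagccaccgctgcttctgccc
SERPINB7, start 2 of 3, chr18:63775168-63775417: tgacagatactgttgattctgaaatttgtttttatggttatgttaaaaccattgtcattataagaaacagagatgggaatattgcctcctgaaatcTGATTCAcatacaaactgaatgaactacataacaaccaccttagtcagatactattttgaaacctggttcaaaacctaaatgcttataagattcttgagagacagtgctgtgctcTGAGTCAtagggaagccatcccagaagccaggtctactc
SERPINB7, start 3 of 3, chr18:63777531-63777780: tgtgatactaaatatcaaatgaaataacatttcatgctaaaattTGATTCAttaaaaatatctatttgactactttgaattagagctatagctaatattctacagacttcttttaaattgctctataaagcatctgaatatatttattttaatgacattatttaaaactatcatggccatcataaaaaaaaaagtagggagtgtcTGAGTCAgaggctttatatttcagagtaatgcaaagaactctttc
SERPINB8, chr18:63969831-63970080: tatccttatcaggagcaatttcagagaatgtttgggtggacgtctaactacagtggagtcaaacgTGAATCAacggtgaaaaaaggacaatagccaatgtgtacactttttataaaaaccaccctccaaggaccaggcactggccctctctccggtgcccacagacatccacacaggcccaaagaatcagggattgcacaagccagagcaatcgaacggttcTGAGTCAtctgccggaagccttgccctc

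The motif was chosen after these sequences were read. TGANTCA occurs in 6.57% of all 35116 promoter windows of the same length. It begins 146 bases before the start in SERPINB5, 185 and 28 bases before it in SERPINB8, 154 and 39 bases before start 2 of SERPINB7, and 206 and 45 bases before start 3. Start 1 of SERPINB7 has no match in its window. Of the 24 measured serpins with a promoter entry, 6 had a window with this motif, in 7 of 34 serpin windows. The dim cluster genes SERPINB12 and SERPINB13, which did not pass the test, were 2 of these 6. Only 4 of the 6 dim cluster genes have a promoter entry. SERPINF1 has none, so no motif was searched for it. CCGGAT, which carries the GGAT core that PDEF prefers, occurred on either strand in 1 of 34 serpin windows, at a start of SERPINE2, and in 5.85% of all windows. CCGGAA, a core common to most ETS factors, occurred in 5 of 34 serpin windows and in 14.5% of all windows. These 5 were 1 window each of SERPINA5, SERPINA10, SERPINB1, SERPINB8 and SERPINH1. A match is a string of letters and not a shown binding site.

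SERPINB7 encodes megsin, a clade B serpin of keratinocytes and kidney mesangial cells. Its log2 signal was 10.98 and 11.01 in the VC-PC3 arrays against 7.13 and 7.09 in the PDEF-PC3 arrays. Both PDEF-PC3 arrays lay far below both VC-PC3 arrays, and all 4 were above the background gauge. The level fell 14.8-fold (limma, standard error 0.0805 on the log2 scale, adjusted p = 2.50e-06).

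SERPINB8 encodes an inhibitor of furin, the protease that cuts many precursor proteins. VC-PC3 arrays showed 7.90 and 7.92, PDEF-PC3 arrays 4.55 and 4.38. The gene went from above the gauge in both VC-PC3 arrays to under it in both PDEF-PC3 arrays. Its log2 fold change was -3.45 (limma, standard error 0.0929, adjusted p = 3.22e-06). FURIN itself, named by the rule for target proteases, rose by 0.91 (adjusted p = 0.000427), from 6.27 and 6.07 to 7.05 and 7.11.

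SERPINB5 encodes maspin, which does not inhibit proteases and is known as a marker of epithelial cells. VC-PC3 arrays showed 6.65 and 6.39 and PDEF-PC3 arrays 3.69 and 3.07. The SD within PDEF-PC3 was 0.438, wider than for most members, and the groups did not overlap. The log2 fold change was -3.14 (limma, standard error 0.206, adjusted p = 5.33e-05), and the PDEF-PC3 level was under the gauge. Of 7 epithelial keratin and adhesion genes, 4 (KRT7, KRT8, KRT19 and EPCAM) also fell, 0 rose and 3 did not pass, beside 24% of all genes lower. On this list 5 of 7 genes were above the gauge in both VC-PC3 arrays and 2 of 7 in both PDEF-PC3 arrays, and the summed linear signal was 2093 to 2185 in VC-PC3 and 1325 to 1398 in PDEF-PC3. CDH1 and KRT5 of that list were above the gauge in no group. The part of these genes in the fall of maspin was not tested. In bulk RNA, fewer cells of a kind and less RNA per cell cannot be told apart.

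The other 6 measured genes of the cluster lie between these 3 and were dim in every array, so that a fall could hardly show. SERPINB2 and HMSD, which lie between SERPINB7 and SERPINB8, were not analysed here. SERPINB3, SERPINB4, SERPINB10, SERPINB11, SERPINB12 and SERPINB13 had signals from 2.44 to 3.66, and none passed the test, with log2 fold changes from -0.30 to -0.01. After median centring SERPINB3 (adjusted p = 0.0282), SERPINB10 (adjusted p = 0.0241) and SERPINB11 (adjusted p = 0.0315) passed it, all lower. SERPINB3 and SERPINB4, the squamous cell carcinoma antigens, are near-identical copies whose signals may not be separable. Outside the cluster the nearest measured genes on either side were VPS4B and CDH7. VPS4B, an endosomal ATPase gene, fell by 0.60 on the log2 scale (limma, standard error 0.0840, adjusted p = 0.00127). The cadherin gene CDH7 moved by -0.65 on that scale (adjusted p = 0.00155, and 0.0550 and 0.0592 without PDEF-PC3 replicate 1 and 2), under the gauge in both groups.

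**Figure D2:**
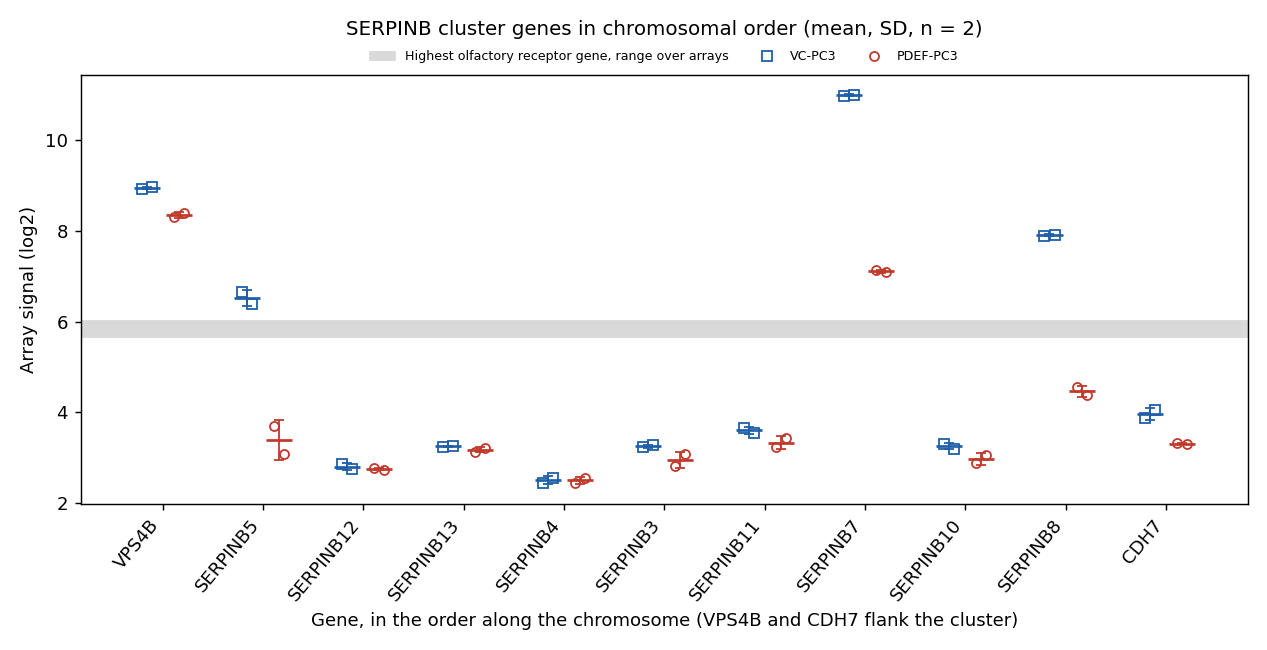
Log2 array signal (vertical axis) of the 9 measured SERPINB cluster genes in their order on chromosome 18 with the flanking genes VPS4B and CDH7 (horizontal axis), as squares for VC-PC3 and circles for PDEF-PC3, with mean and SD (n = 2). SERPINB5, SERPINB7 and SERPINB8 stand out in VC-PC3 and are lower in PDEF-PC3, while the 6 genes between them stay between 2.44 and 3.66 in every array; the grey band spans the highest olfactory receptor gene of the arrays, 5.65 to 6.01.

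The remaining measured clade B genes are a pair on chromosome 6. SERPINB1, an inhibitor of neutrophil elastase and cathepsin G that protects the cells that hold them, went from 8.62 and 8.49 in the VC-PC3 arrays to 7.19 and 7.36 in the PDEF-PC3 arrays. It fell by 1.28 on the log2 scale (limma, standard error 0.0998, adjusted p = 0.000105), and all arrays stayed above the gauge. SERPINB9, an inhibitor of granzyme B, was under the gauge in all arrays, at 4.67 and 4.60 against 4.34 and 4.17. It fell by 0.38 (adjusted p = 0.0159), a call lost whenever 1 array was left out, with an adjusted p from 0.0502 to 0.125. GZMB, its target, did not pass the test (log2 fold change -0.20, adjusted p = 0.0982). Over the clade 5 of 11 genes fell and 0 rose (limma, adjusted p under 0.05; no clade B gene rose at an unadjusted p under 0.05 either), with 45.5% called against 50.7% of all genes in either direction and 24% lower.

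Among the secreted serpins, SERPINF1 rose from background. It encodes PEDF, a non-inhibitory serpin known to restrain blood vessel growth and to support neurons. VC-PC3 arrays showed 3.99 and 4.22, within the range of olfactory receptor genes, and PDEF-PC3 arrays 8.61 and 8.68. The log2 fold change was 4.54 (limma, standard error 0.104, adjusted p = 2.66e-06), the only serpin that went from under the gauge to above it. SERPINF2, its neighbour on chromosome 17, encodes alpha-2-antiplasmin, the main inhibitor of plasmin. It moved the other way and by little, from 4.82 and 4.91 to 4.38 and 4.65 (log2 fold change -0.35, adjusted p = 0.0413), a call lost in 6 of 9 alternatives. The genes flanking the pair were chosen after their values were seen. SMYD4, a methyltransferase gene next to SERPINF1, rose by 0.62 (adjusted p = 0.00212, and 0.0504 without VC-PC3 replicate 1 or 0.0582 without replicate 2), and WDR81 on the far side showed a log2 fold change of 0.17 (limma, adjusted p = 0.168). The rise of SERPINF1 was larger than that of either flank. WDR81 was under the gauge in all arrays and SERPINF1 in VC-PC3, so neither fold change has an exact size. PNPLA2, which encodes a lipase known as a PEDF receptor, showed a log2 fold change of -0.02 (adjusted p = 0.895).

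SERPINI1 encodes neuroserpin, an inhibitor of tissue plasminogen activator in the nervous system. It rose by 0.77 on the log2 scale (limma, standard error 0.108, adjusted p = 0.00132, and 0.0514 without VC-PC3 replicate 1), from 4.49 and 4.64 to 5.23 and 5.44, under the gauge in every array. SERPINI2, the pancreatic member of its clade, lay at 2.80 and 2.86 against 2.71 and 2.68 and did not pass the test. Of 7 measured markers of the neuronal cytoskeleton, 3 (NEFL, NEFM and INA) rose, 0 fell and 4 did not pass, with -0.01 as their median log2 fold change. That is 42.9% called, beside 50.7% of all genes called and 26.7% higher. Among them 1 was above the gauge in both VC-PC3 arrays and those 3 in both PDEF-PC3 arrays, and the summed linear signal of the list was 238 to 241 in VC-PC3 and 2286 to 2546 in PDEF-PC3. NEFM, at 10.69 and 10.89 in PDEF-PC3, was the brightest of them there, and NEFH, MAP2, STMN2 and DCX stayed under the gauge in both groups. Of 9 measured kidney development genes, 4 rose (WT1, EYA1, SALL1 and EMX2), 2 fell (PAX8 and OSR1) and 3 did not pass. That is 66.7% called beside 50.7% of all genes. Above the gauge in both arrays were PAX8, WT1, SIX2 and SALL1 in VC-PC3 and WT1, EYA1, SIX2 and SALL1 in PDEF-PC3. The summed signals were 598 to 608 in VC-PC3 and 799 to 837 in PDEF-PC3. PAX2, LHX1, EMX2 and OSR1 were not above the gauge in both arrays of either group. The part of these lists in the rise of the serpins was not tested.

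SERPINE2 encodes protease nexin-1, which inhibits thrombin, urokinase and plasmin at the cell surface. Its log2 signal was 6.74 and 6.70 in the VC-PC3 arrays against 7.63 and 7.73 in the PDEF-PC3 arrays. Both PDEF-PC3 arrays lay above both VC-PC3 arrays, and all were above the gauge. The level was 1.95-fold higher (limma, log2 fold change 0.96, standard error 0.0849, adjusted p = 0.000179).

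SERPINA1 and SERPIND1 both fell to under the gauge. SERPINA1, alpha-1-antitrypsin, is the main inhibitor of neutrophil elastase in plasma and is made chiefly by the liver. It read 7.13 and 7.20 in the VC-PC3 arrays against 5.06 and 5.23, under the gauge, in the PDEF-PC3 arrays, and fell by 2.02 on the log2 scale (limma, standard error 0.0948, adjusted p = 1.62e-05). SERPIND1, heparin cofactor II, is a thrombin inhibitor of plasma. VC-PC3 arrays showed 6.38 and 6.78 and PDEF-PC3 arrays 4.39 and 4.76, again under the gauge, and the level fell 4.01-fold (limma, log2 standard error 0.173, adjusted p = 0.000163). Of 6 hepatocyte markers, which include ALB and APOA1, 0 were above the gauge in both arrays of either group, and their summed linear signal was 101 to 104 in VC-PC3 and 92 to 95 in PDEF-PC3.

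The other 10 clade A genes were under the gauge in every array, with signals from 2.65 to 5.03. Of these only SERPINA3, alpha-1-antichymotrypsin, which binds prostate-specific antigen in blood, passed the test. It lay at 4.12 and 3.84 against 3.65 and 3.57 (log2 fold change -0.37, limma, adjusted p = 0.0355), a call lost in 5 of 9 alternatives. The hormone carriers SERPINA6, for cortisol, and SERPINA7, for thyroxine, had log2 fold changes of 0.23 and 0.12 and did not pass. Nor did SERPINA2, SERPINA4, SERPINA5, SERPINA9, SERPINA10, SERPINA11 or SERPINA12, whose log2 fold changes ran from -0.21 to -0.04. Apart from SERPINA7 on the X chromosome, the clade A genes form a cluster on chromosome 14. PPP4R4, a phosphatase subunit gene on one side of it, rose by 2.19 (adjusted p = 5.08e-05) from under the gauge to 6.33 and 6.26, and GSC on the other side showed a log2 fold change of 0.17 (adjusted p = 0.168).

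SERPINH1 encodes HSP47, a chaperone of the endoplasmic reticulum that helps collagen to fold. It was above the gauge in all arrays, with 8.15 and 8.31 in the VC-PC3 arrays against 8.59 and 8.39 in the PDEF-PC3 arrays. The groups did not overlap, but the log2 fold change of 0.26 did not pass the test (limma, standard error 0.107, adjusted p = 0.0885). It did so with an intensity trend (adjusted p = 0.0293) and among genes above the median level (adjusted p = 0.0374). COL1A1, a collagen client of HSP47 named after its value was seen, fell by 1.34 (limma, adjusted p = 0.000183). The collagen genes COL1A2 and COL3A1 were under the gauge in every array. COL1A2 fell by 0.525 (adjusted p = 0.00204), and COL3A1 showed a log2 fold change of 0.005 (adjusted p = 0.979).

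SERPING1, the C1 inhibitor that controls complement, read 4.74 and 4.31 in the VC-PC3 arrays against 4.20 and 4.09 in the PDEF-PC3 arrays, under the gauge. Its log2 fold change was -0.38 and missed the threshold (limma, adjusted p = 0.0757, but 0.0356 without VC-PC3 replicate 2). SERPINC1, antithrombin, had signals of 3.79 and 3.59 against 3.73 and 3.77, and its groups overlapped.

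**Figure D3:**
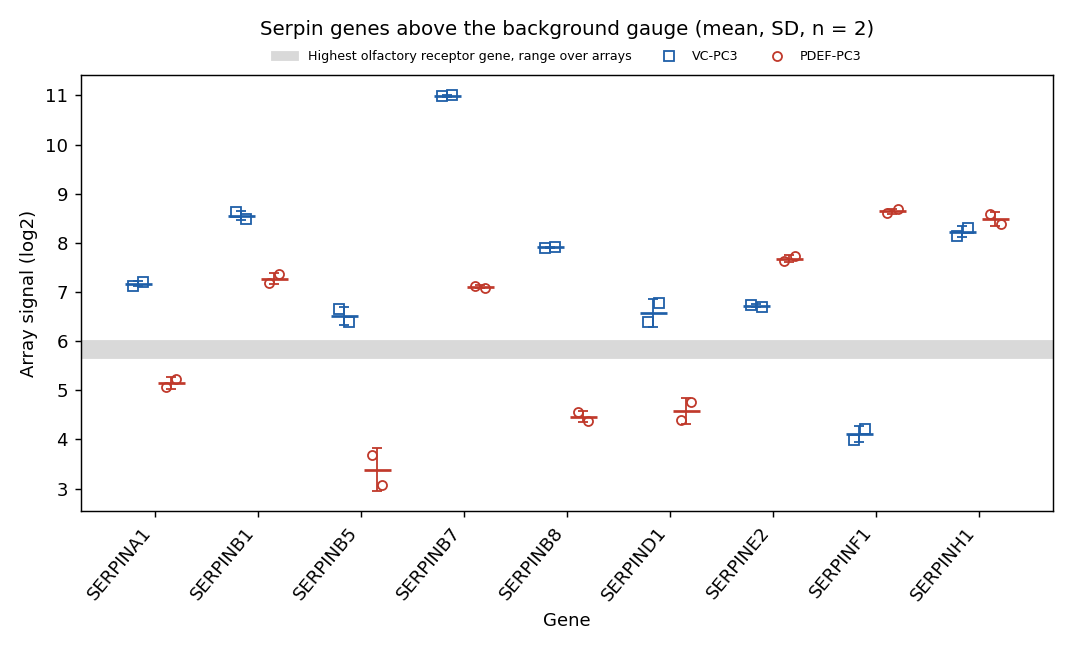
Log2 array signal (vertical axis) of the 9 serpin genes above the background gauge in both arrays of at least 1 group (horizontal axis), as squares for VC-PC3 and circles for PDEF-PC3, with mean and SD (n = 2). SERPINA1, SERPINB5, SERPINB8 and SERPIND1 drop under the grey band (highest olfactory receptor gene, 5.65 to 6.01) in PDEF-PC3, SERPINF1 rises above it to 8.61 and 8.68, and SERPINB1, SERPINB7, SERPINE2 and SERPINH1 stay above it in all 4 arrays.

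The proteases that serpins act on outside the cell were mostly dim, and the plasminogen activators fell. Of 37 measured secreted targets, 2 rose, 9 fell and 26 did not pass (limma, adjusted p under 0.05), or 29.7% called beside 50.7% of all genes (26.7% higher and 24% lower), with a median log2 fold change of -0.21 against -0.05 over all genes, and 10 were above the gauge in both arrays of a group. With any 1 array left out the count of rises was 1. PLAU, urokinase, went from 12.42 and 12.34 in VC-PC3 to 8.38 and 8.35 in PDEF-PC3. It fell by 4.01 on the log2 scale (limma, standard error 0.0829, adjusted p = 2.50e-06). PLAT, tissue plasminogen activator, fell by 2.28 (adjusted p = 8.33e-06) and PRSS3, a trypsin gene, fell by 2.06 (adjusted p = 2.68e-05), while KLK7, a kallikrein gene under the gauge, showed a log2 fold change of 0.29 (adjusted p = 0.0247) whose call was lost in 6 of 9 alternatives. KLK3, prostate-specific antigen, was under the gauge in every array. Both plasminogen activators that protease nexin-1 and neuroserpin inhibit thus fell in the arrays where SERPINE2 and SERPINI1 rose.

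Proteases inside the cell changed in both directions, and 11 of them were above the gauge in both arrays of at least 1 group. Of 20 measured, 3 rose, 11 fell and 6 did not pass, or 70% called beside the 50.7%, with a median log2 fold change of -0.45, and without PDEF-PC3 replicate 2 the count of falls was 7. CTSV, cathepsin V, rose by 1.69 (limma, standard error 0.106, adjusted p = 4.46e-05), CTSH by 1.12 and CTSL by 0.80. CASP4, an inflammatory caspase gene, fell by 3.10 (standard error 0.124, adjusted p = 9.02e-06), CTSZ fell by 2.21 and CTSS fell by 1.78. The PDEF-PC3 signals of CASP4 and CTSS were under the gauge. Cathepsin L, known as 1 target of SERPINB3, was thus higher while that serpin stayed at background in both groups. Other cathepsins did not share this rise: CTSS was lower, and CTSK, under the gauge, did not pass (log2 fold change 0.045, limma, adjusted p = 0.785).

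Of 23 measured genes for receptors and cofactors of serpins, 20 were above the gauge in both arrays of at least 1 group. In a fit of the genes above the median level, 2 of the 19 left rose and 10 fell, beside 75.3% of all genes called. Among all 23, 4 rose, 12 fell and 7 did not pass (limma, adjusted p under 0.05). That is 69.6% called beside 50.7% of all genes (26.7% higher and 24% lower), with a median log2 fold change of -0.24. The count of rises was 2 without VC-PC3 replicate 2 or with either array of PDEF-PC3 left out. PLAUR, the urokinase receptor, fell by 2.57 (standard error 0.0842, adjusted p = 4.79e-06), from 9.89 and 9.79 to 7.27 and 7.26. THBD, thrombomodulin, fell by 2.42 (adjusted p = 2.42e-05), ITGB1, an integrin subunit gene, fell by 2.14, and LRP1, the endocytic receptor that clears serpin and protease complexes, fell by 1.41 (adjusted p = 9.90e-05). LRP2 and SORL1, receptors of the same family, rose by 0.86 each, LRP2 under the gauge in every array, and PROCR, the endothelial protein C receptor, rose by 0.53 (adjusted p = 0.00359, and from 0.0501 to 0.0676 in those same 3 fits). VTN, the plasma protein vitronectin, was under the gauge in all arrays, and its log2 fold change of -0.32 (adjusted p = 0.0322) lost its call in 5 of 9 alternatives.

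**Figure D4:**
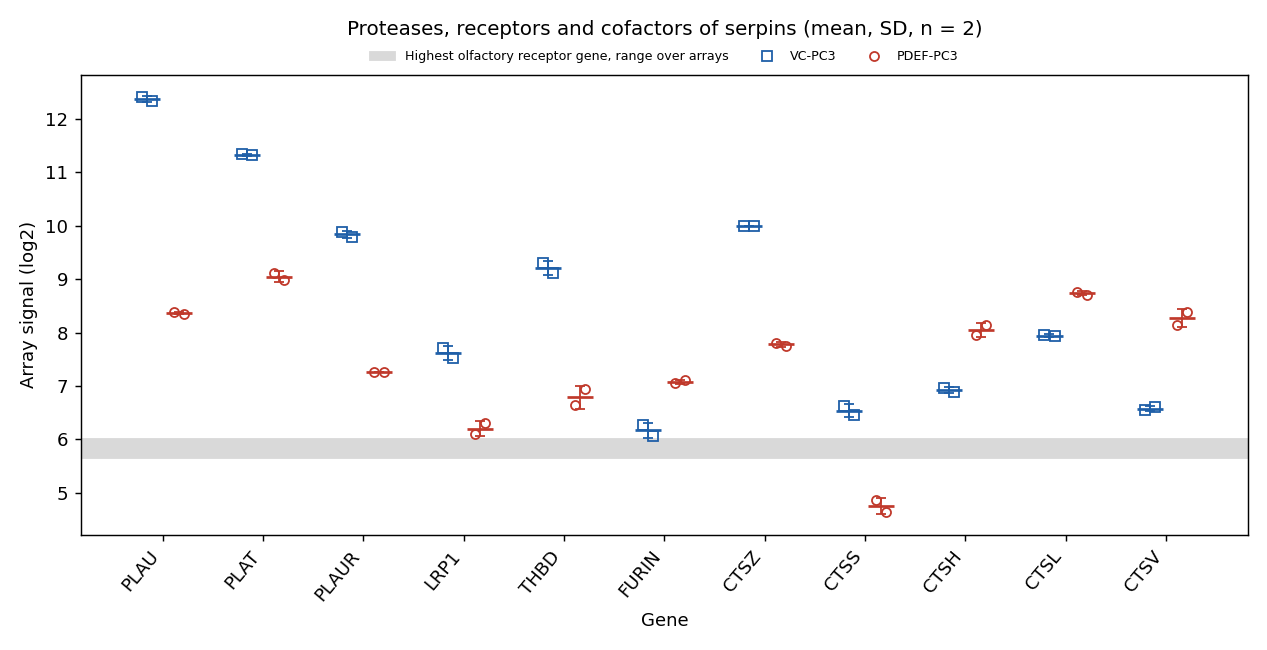
Log2 array signal (vertical axis) of 11 genes for proteases, receptors and cofactors of serpins (horizontal axis), as squares for VC-PC3 and circles for PDEF-PC3, with mean and SD (n = 2) and the highest olfactory receptor gene as a grey band. PLAU moves from 12.42 and 12.34 to 8.38 and 8.35, and FURIN, CTSH, CTSL and CTSV lie higher in PDEF-PC3 while the others lie lower.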

How the data were processed

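RNA of VC-PC3 and PDEF-PC3 cells (2 arrays each) was hybridized to Affymetrix HuGene-1.0-st-v1 arrays. The authors deposited 1 log2 signal per probe set and array, made with Transcriptome Analysis Console per the submitters' processing notes. The log2 scale was inferred from the values, and for version, background correction and normalization the entry is "not given in the sources used here". Array medians of 5.41 to 5.46 point to scaling by the authors, which would remove a shift common to all genes, and the values were used as deposited. Of 33297 probe sets, 19460 carried 1 symbol (99.8% matched by gene ID to RefSeq's GRCh38.p14 table, from which symbols were updated), 1754 carried several and 12083 are unnamed here, and neither of the last 2 kinds was used. The probe set with the highest mean stood for a gene. limma 3.58.1 (R 4.3.3; lmFit, eBayes, two-sided, 2 residual and 4.23 prior degrees of freedom, no filter) was fitted to 18417 genes with Benjamini-Hochberg adjustment and tested on simulated data. Calls required an adjusted p under 0.05. Named were all measured serpins, up to 3 called genes per direction of each other list, 5 fixed partner genes and the genes flanking the clusters; other genes are named as marker or list members, and those chosen by value are so described. The serpins and lists were chosen with earlier results of these data known. Alternatives were quantile normalization, median centring, genes above the median level, the mean of probe sets, an intensity trend, the replicate number as a block, and leaving out each array. The number of arrays limits the precision.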

Additional observations from a re-analysis of the deposited data

How the results depend on the processing

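The calls of SERPINA1, SERPINB1, SERPINB5, SERPINB7, SERPINB8, SERPIND1, SERPINE2 and SERPINF1 held with the same direction in each alternative run for them (adjusted p at most 0.0324). The calls of SERPINA3, SERPINB9, SERPINF2 and SERPINI1 did not. After median centring 14 of 31 serpins fell. With the fit limited to genes above the median level 5 serpins were left, of which 3 rose and 2 fell. In that fit 75.3% of all genes were called. For the secreted target proteases, 1 rose after median centring, among genes above the median level and with an intensity trend, and 18 and 4 fell in the first 2 of these settings. Among genes above the median level 5 intracellular targets fell and 2 receptor and cofactor genes rose. Leaving out 1 array left 2 to 3 serpins higher and 6 to 8 lower, 1 secreted target higher and 6 to 9 lower, 3 intracellular targets higher and 7 to 9 lower, 2 to 3 receptor and cofactor genes higher and 9 to 11 lower, and 2 to 5 other protease inhibitors higher and 8 to 11 lower. Over all genes the calls went from 9337 to 5670 without PDEF-PC3 replicate 1 and to 5336 without replicate 2.
The log2 fold change changed sign only for members that did not pass the test. After quantile normalization it was 0.0163 for SERPINA12, 0.05 for SERPINA5, 0.0113 for SERPINB12, 0.0075 for SERPINB13 and 0.0431 for SERPINB4, and after median centring -0.01 for SERPINC1. With 1 array left out it ranged from -0.39 to 0.29 for SERPINA10, -0.225 to 0.015 for SERPINA11, -0.305 to 0.005 for SERPINA2, -0.155 to 0.075 for SERPINA5, -0.115 to 0.005 for SERPINB12, -0.065 to 0.055 for SERPINB4 and -0.04 to 0.16 for SERPINC1. The cause of these moves was not tested.
The shared replicate numbers are not stated to mark a common culture or day. Same-numbered arrays' deviations correlated with r = 0.0221 over all genes, which does not pair them. With the replicate number as a block 3 serpins rose and 7 fell, and SERPINA3 (adjusted p = 0.0524) and SERPINF2 (adjusted p = 0.0534) lost their calls. Signal over background limits the 22 dim serpins, for which a missed call does not show equal levels.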

Other observations

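Protease inhibitors of other families changed in both directions in the same limma fit, a comparison that rests on a list chosen with results known. Of 38 measured, 19 were above the background gauge in both arrays of at least 1 group, against 9 of the 31 serpins. The shares of the 2 lists are thus not compared at like brightness. Among the 38, 6 rose, 16 fell and 16 did not pass at an adjusted p under 0.05. That makes 57.9% called beside 38.7% of the serpins and 50.7% of all genes, with a median log2 fold change of -0.27. The count of rises was 3 without VC-PC3 replicate 2. Leaving out VC-PC3 replicate 1 gave 10 falls, PDEF-PC3 replicate 1 gave 3 rises and 9 falls, and PDEF-PC3 replicate 2 gave 2 rises and 8 falls. TFPI2, a Kunitz inhibitor of the matrix that blocks plasmin and trypsin, had a log2 fold change of -3.12 (limma, standard error 0.147, adjusted p = 1.62e-05), going from 11.77 and 11.51 in VC-PC3 to 8.34 and 8.69 in PDEF-PC3. LXN, latexin, an inhibitor of carboxypeptidases, read 6.90 and 7.12 in the VC-PC3 arrays against 3.94 and 4.17, under the background gauge, in the PDEF-PC3 arrays (log2 fold change -2.96, adjusted p = 9.38e-06). SPINT2, an inhibitor of membrane serine proteases such as matriptase, fell by 2.02 (adjusted p = 1.72e-05).
TIMP3, a matrix-bound inhibitor of metalloproteinases, rose by 2.94 (standard error 0.278, adjusted p = 0.000237, and 0.0537 without PDEF-PC3 replicate 2), from 5.35 and 4.45 to 7.70 and 7.97, and by 1.82 with the mean of its probe sets. PI15, a secreted protein named as a peptidase inhibitor, rose by 2.26 (adjusted p = 0.000293), and 1 of its PDEF-PC3 arrays was above the gauge. PEBP1, an inhibitor of Raf kinase signalling that is also grouped with peptidase inhibitors, rose by 0.68 (adjusted p = 0.000902).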
